A study of Mus musculus with 6 samples.

Results

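Genes known as regulators or markers of hair follicle stem cells were followed in primary mouse keratinocytes with and without active NFATc1. They were 10 in number (Cd34, Lgr5, Lgr6, Sox9, Lhx2, Tcf7l1, Tcf7l2, Foxc1, Lrig1 and Gas1), taken by name out of 19935 genes measured, and each gene had 1 array row of its own. The cells were wild-type CD1 keratinocytes grown in low-calcium medium. In 3 cultures a retrovirus carried caNFATc1, a human NFATc1 with a mutated autoinhibitory domain that leaves it constitutively active, and in 3 vector control cultures it was the empty MSCV virus. Total RNA of each culture was hybridised to 1 array as biotin-labelled cDNA. The transgene came from the virus and not from a follicle promoter, and the cells were keratinocytes in culture and not sorted bulge cells.

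Hair follicle stem cells sit in the bulge, a part of the outer root sheath, and stay quiescent through most of the hair cycle. BMP signals and NFATc1 are known to hold them there, and a rise of Wnt signalling at the end of the resting phase brings them into growth. The genes followed here cover that circuit. TCF7L1 and TCF7L2 bind Wnt target genes, LGR5 and LGR6 are R-spondin receptors that strengthen Wnt signals, SOX9, LHX2 and FOXC1 are transcription factors of the stem cell state, and CD34, LRIG1 and GAS1 are surface proteins.

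The deposited log2 values had been centred row by row, so that 0 is the median of a gene over the 6 arrays and no level of expression can be given. The labelled cell type could therefore not be checked by marker levels. Between the groups the basal keratins Krt5 and Krt14 differed by 0.03 and -0.02. Other keratinocyte markers differed more: Trp63 by 0.42, Epcam by -0.26 and Krt15 by -0.58. Of 12 such markers 5 were positive and 7 negative, with a median of -0.01. Rcan1, a known NFAT target that encodes a calcineurin inhibitor, rose by 3.38 on the log2 scale (SE 0.19 with 3 arrays per group, adjusted p = 0.0113 by limma). Replicate 1 stood apart in both groups: the row for Xist, the RNA of the inactive X chromosome, was at -6.00 and -6.05 there and between -0.04 and 0.18 on the other arrays. The row for Eif2s3y, a gene of the Y chromosome, was at 3.00 in vector control replicate 1 and 3.77 in caNFATc1 replicate 1. On the other arrays it lay between -0.08 and 0.01. Arrays with equal replicate numbers deviated together, so the groups were compared without and with the replicate number as a block. Of the genes said here to rise or fall, Rcan1 and Postn alone also passed without the block. These 2 calls without the block were lost when vector control replicate 3, or replicate 3 of both groups, was left out. In those settings 0 genes were called. The calls of all other genes rest on the pairing of the arrays. Because the RNA came from whole cultures, fewer cells of a type and less RNA per cell cannot be told apart.

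The comparison asks which of these regulators differ when NFATc1 is active. Tcf7l2 was 2.13-fold and Gas1 1.90-fold higher in caNFATc1 cells, and both rose in the fit with the replicate block. Lgr5 was 1.87-fold higher on average and passed neither fit. The other 7 differed by less than 0.5 on the log2 scale in either direction and passed neither fit. Without the block, limma called 0 of the 10 at an adjusted p under 0.05, against 0.216% of all genes, and 3 of the 10 (Lgr5, Tcf7l2 and Gas1) had an unadjusted p under 0.05, against 12.7% of all genes. With the block 2 of the 10 were higher and 0 lower, against 3.73% and 2.38% of all genes, and 5 had an unadjusted p under 0.05, against 21.5%. The median difference of the 10 genes was 0.16, against -0.01 over all genes. The 10 were chosen with earlier results of these data known, so these shares are descriptive and not a test. The same shares of all genes are the background for the counts of every list below.

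**Figure D1:**
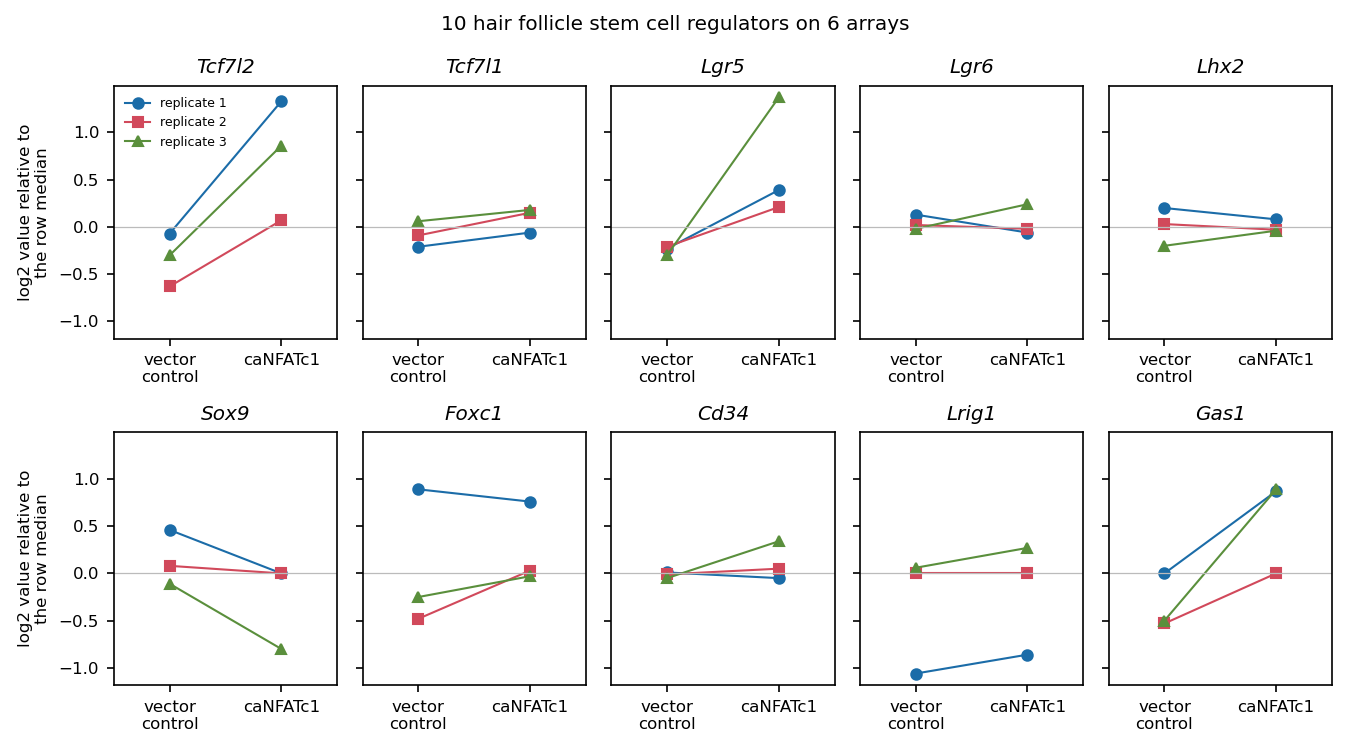
Log2 value of each of the 10 genes relative to its row median (y axis) in vector control and caNFATc1 cells, with 1 point per array and a line joining arrays of the same replicate number. Tcf7l2, Gas1 and Lgr5 lie higher in caNFATc1 cells in all 3 pairs, while Foxc1 and Lrig1 separate replicate 1 from replicates 2 and 3 in both groups.

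Tcf7l2 encodes TCF7L2 (TCF4), a DNA-binding partner of beta-catenin that can repress Wnt targets when beta-catenin is absent. Its log2 values in vector control replicates 1, 2 and 3 were -0.07, -0.63 and -0.30. In caNFATc1 replicates 1, 2 and 3 they were 1.33, 0.07 and 0.86. The groups did not overlap, which held for 9.64% of all genes with caNFATc1 higher, although the lowest caNFATc1 array and the highest control array lay close together. Within pairs Tcf7l2 was higher by 1.40, 0.70 and 1.16. The log2 difference was 1.09, with an SE of 0.14 and an adjusted p of 0.0168 with the replicate block, and an SE of 0.33 and an adjusted p of 0.258 without it. The rise was called in each of the 3 fits with the block that left out 1 pair (adjusted p between 0.00529 and 0.0352).

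Tcf7l1 encodes TCF7L1 (TCF3), the related factor known chiefly as a repressor in bulge cells. Its values in vector control replicates 1, 2 and 3 were -0.21, -0.09 and 0.06, and in caNFATc1 replicates -0.06, 0.15 and 0.18. The groups overlapped. The gene was higher in all 3 pairs, by 0.16, 0.24 and 0.12, a direction shared by 21.6% of all genes. The mean difference of 0.17 had a 95% interval from 0.01 to 0.33 with the block and did not pass over all genes (adjusted p = 0.204 with the block, 0.561 without). The difference of Tcf7l2 exceeded that of Tcf7l1 by 1.24, 0.46 and 1.04 in the 3 pairs, a mean of 0.92 ± 0.40 (SD, n = 3 pairs, exact sign-flip permutation p = 0.250, two-sided). That is the smallest p that 3 pairs allow.

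Partners of the TCF factors and beta-catenin targets were counted as a list of 28 measured genes. With the block 2 rose, 0 fell and 26 were not called, and the median difference was -0.05. Tle4, which encodes a Groucho corepressor that binds TCF factors, rose by 1.22 ± 0.15 (SE with the block, n = 3 pairs, adjusted p = 0.0158, and 0.161 without it). In the 3 pairs Tle4 was higher by 1.29, 0.79 and 1.57. Cd44, a hyaluronan receptor gene and known Wnt target, rose by 1.54 ± 0.12 (SE with the block, adjusted p = 0.00604, against 0.0617 without it). Lef1, a further factor of the TCF family, and the feedback target Axin2, a common readout of Wnt signalling, differed by -0.04 and -0.06 and missed the threshold in both fits (adjusted p with the block, 0.859 and 0.826). Their 3 pairs were of mixed sign. Ccnd1 and Myc, further Wnt targets, differed by -0.41 and -0.37 (adjusted p with the block, 0.267 and 0.105).

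Lgr5 encodes a receptor for R-spondins that marks cells of the lower bulge and hair germ. Its values in vector control replicates 1, 2 and 3 were -0.23, -0.21 and -0.30. In caNFATc1 replicates 1, 2 and 3 they were 0.39, 0.21 and 1.37. The groups did not overlap, the control arrays lay within 0.08 of each other, and the spread lay in the caNFATc1 arrays, where replicate 3 was highest. Within pairs the differences were 0.61, 0.43 and 1.66. Their mean of 0.90 had a 95% interval from 0.32 to 1.49 with the block and did not pass over all genes (SE 0.24, adjusted p = 0.0910 with the block, and 0.292 without). With replicate 3 of both groups left out the difference was 0.52 and the adjusted p with the block 0.0359, while it stayed above the threshold without pair 1 or pair 2 (0.135 and 0.0638).

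Lgr6, the related receptor gene that marks cells above the bulge, did not show this. Its values were 0.13, 0.02 and -0.02 in vector control replicates and -0.06, -0.02 and 0.24 in caNFATc1 replicates. The groups overlapped and the pairs differed in sign, with differences of -0.18, -0.04 and 0.26. The mean was 0.01, with a 95% interval from -0.23 to 0.26 with the block (adjusted p = 0.970). The difference of Lgr5 exceeded that of Lgr6 by 0.80, 0.47 and 1.40 in the 3 pairs, a mean of 0.89 ± 0.47 (SD, n = 3 pairs, exact sign-flip permutation p = 0.250, two-sided), again the smallest p possible. The third receptor gene, Lgr4, differed by 0.30 ± 0.12 (SE with the block, adjusted p = 0.224).

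The R-spondin receptor list covered LGR4, the R-spondins, Frizzled receptors, their co-receptors and the 2 ligases that R-spondins restrain. Of its 18 measured genes, 4 rose with the block, 0 fell and 14 were not called, with a median difference of 0.12. Over all genes 3.73% rose and 2.38% fell with the block. Rnf43, the ligase gene whose product removes Frizzled receptors from the membrane, rose by 0.48 ± 0.06 (SE with the block, adjusted p = 0.0202). Its pair differences lay between 0.43 and 0.55. The Frizzled genes Fzd1, Fzd3 and Fzd5 rose by 0.68, 0.41 and 1.01 (adjusted p with the block, 0.0102, 0.0293 and 0.0358). None of the 4 passed without the block (adjusted p between 0.218 and 0.756). After quantile normalization with the block the list had 2 higher and 1 lower, and Rnf43 (0.0581) and Fzd3 (0.0976) were not called.

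**Figure D2:**
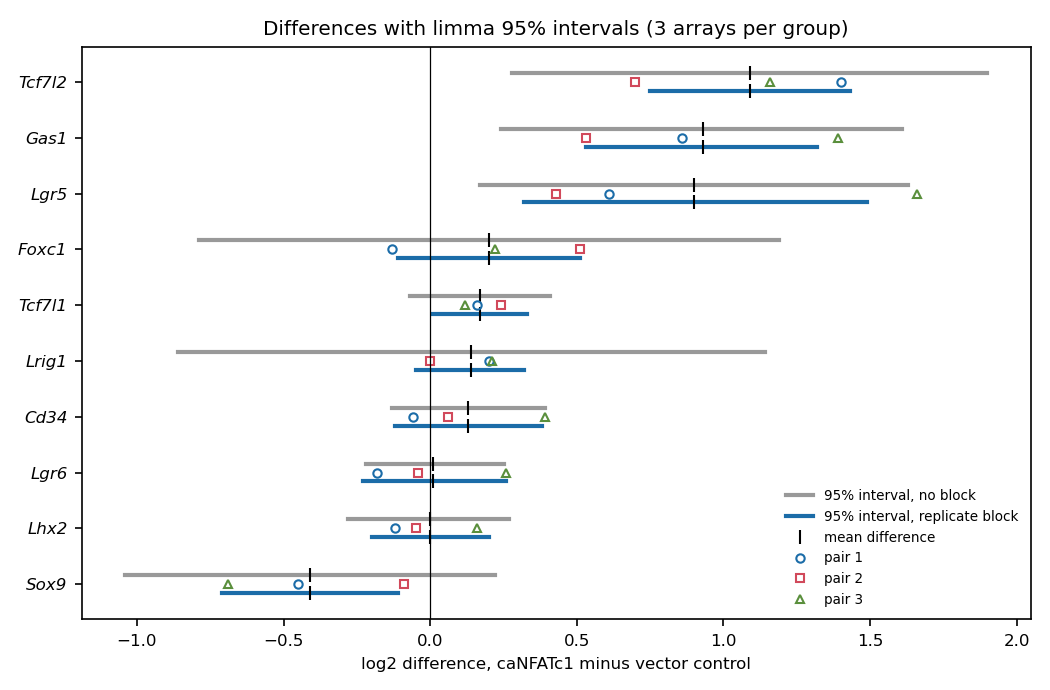
Log2 difference, caNFATc1 minus vector control, for each of the 10 genes (x axis), with limma's 95% interval without the block in grey and with the replicate block in blue, and the 3 pair differences as open symbols. With the block the intervals of Tcf7l2, Gas1, Lgr5 and Tcf7l1 lie above 0 and that of Sox9 below it, before adjustment over all genes.

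Sox9 encodes a transcription factor needed to form and keep the bulge stem cells. It was the only one of the 10 that was lower in all 3 pairs, a direction shared by 21.3% of all genes. Its values were 0.46, 0.08 and -0.11 in vector control replicates 1, 2 and 3 and 0.00, 0.00 and -0.80 in caNFATc1 replicates. The groups overlapped. The pair differences were -0.45, -0.09 and -0.69, with a mean of -0.41 and a 95% interval from -0.71 to -0.11 with the block. The difference did not pass over all genes (SE 0.12, adjusted p = 0.119 with the block, 0.604 without).

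Lhx2, which encodes a LIM homeodomain factor that keeps bulge cells undifferentiated, had values of 0.20, 0.03 and -0.20 in vector control replicates and 0.08, -0.03 and -0.04 in caNFATc1 replicates. The groups overlapped, and the pair differences of -0.12, -0.05 and 0.16 had no common sign. The interval of the mean difference ran from -0.20 to 0.20 with the block (adjusted p = 0.988).

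Foxc1 encodes a forkhead factor that returns activated stem cells to quiescence and acts upstream of NFATc1 and BMP signals. Its values were 0.89, -0.48 and -0.25 in vector control replicates 1, 2 and 3 and 0.76, 0.03 and -0.03 in caNFATc1 replicates. Replicate 1 was the highest array of each group. The pair differences were -0.13, 0.51 and 0.22, so the group difference of 0.20 was smaller than the range of 1.37 over the control arrays. Its 95% interval ran from -0.11 to 0.51 with the block (adjusted p = 0.451, and 0.906 without).

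Relatives and cofactors of these factors formed a list of 31 measured genes, in which 1 rose, 2 fell and 28 were not called with the block. The median difference was -0.06, and 22 of the 31 were negative, against 52.6% of all genes. Foxn1, a forkhead gene of hair and epidermal differentiation, fell by 0.98 ± 0.16 (SE with the block, adjusted p = 0.0321, against 0.337 without it). Sox11 fell by 0.49 and Sox4 rose by 0.44 (adjusted p with the block, 0.0434 and 0.0443, and without it 0.427 and 0.432). After quantile normalization with the block the calls of Foxn1 (0.0798) and Sox4 (0.0730) were lost, which left 0 higher and 1 lower. Foxm1, a forkhead gene of the cell cycle, differed by -0.70 without passing (adjusted p = 0.0618 with the block), and Foxc2, the closest relative of Foxc1, by -0.26 (0.597).

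The BMP and NFATc1 axis that FOXC1 is known to feed was counted over 25 measured genes, of which 4 rose, 0 fell and 21 were not called with the block, with a median of 0.04. The receptor genes Bmpr1b, Acvr1 and Bmpr2 rose by 0.64, 0.53 and 0.38 (adjusted p with the block, 0.0190, 0.0323 and 0.0343). Without it their adjusted p was 0.396, 0.0678 and 0.171. Quantile normalization with the block gave 4 higher and 1 lower in this list. Stat5a, a transducer of prolactin signals, rose by 0.56 ± 0.08 (SE with the block, adjusted p = 0.0245, against 0.0601 without it). The ligand genes Bmp6 and Fgf18, both made by bulge cells, differed by -0.05 and -0.08, short of the threshold in both fits. The mouse Nfatc1 row differed by 0.04 ± 0.09 (SE, adjusted p = 0.917), and whether it detects the human transgene was not tested.

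Gas1 encodes a membrane-anchored co-receptor for hedgehog ligands. Its values were 0.00, -0.53 and -0.50 in vector control replicates 1, 2 and 3 and 0.87, 0.00 and 0.89 in caNFATc1 replicates. Control replicate 1 and caNFATc1 replicate 2 met at the row median, and every other caNFATc1 array lay above every control array. Within pairs Gas1 was higher by 0.86, 0.53 and 1.39. The log2 difference was 0.93, with an SE of 0.16 and an adjusted p of 0.0351 with the block, and an SE of 0.28 and an adjusted p of 0.253 without it. The call with the block was lost without pair 1 (adjusted p = 0.0863) and after quantile normalization (0.0518), and held without pair 2 or pair 3 (0.0167 for each).

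In the hedgehog list, 2 of 23 measured genes rose with the block, 0 fell and 21 were not called, with a median difference of 0.00. Boc, the gene of another hedgehog co-receptor, rose 2.26 ± 0.10 on the log2 scale (SE with the block, adjusted p = 0.00190, and 0.0678 without), by 2.05, 2.25 and 2.50 in the 3 pairs. Gli2, which encodes the main activating transcription factor of the pathway, rose by 0.46 ± 0.07 (SE with the block, adjusted p = 0.0244, against 0.546 without it). The response genes Ptch1 and Gli1, whose transcripts follow hedgehog activity, differed by 0.22 and -0.07, short of the threshold in both fits (adjusted p with the block, 0.190 and 0.818).

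The promoters of Tcf7l2 and Gas1 are shown because these were the genes of the 10 that rose with the block. They differ in CpG content. Each line gives the 250 bases before a transcription start from RefSeq (GRCm38.p6), in the direction of transcription, with CpG dinucleotides in capitals. For Tcf7l2 it is the first of 2 listed starts, chr19:55741560-55741809 on the plus strand. For Gas1 it is chr13:60177536-60177785 on the minus strand.
Tcf7l2: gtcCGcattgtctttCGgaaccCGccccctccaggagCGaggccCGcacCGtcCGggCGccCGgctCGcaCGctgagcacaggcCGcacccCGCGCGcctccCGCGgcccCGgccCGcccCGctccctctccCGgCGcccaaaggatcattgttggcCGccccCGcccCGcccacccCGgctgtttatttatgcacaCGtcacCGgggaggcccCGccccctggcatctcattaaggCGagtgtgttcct
Gas1: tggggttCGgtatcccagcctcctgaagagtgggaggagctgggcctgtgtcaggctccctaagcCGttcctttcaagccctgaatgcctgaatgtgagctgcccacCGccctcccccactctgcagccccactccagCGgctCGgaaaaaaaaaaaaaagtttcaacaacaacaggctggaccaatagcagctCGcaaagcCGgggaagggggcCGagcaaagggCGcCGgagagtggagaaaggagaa
The Tcf7l2 stretch holds 30 CpG dinucleotides and that of Gas1 10. Windows of 300 bases (250 before and 50 after a start) were given for 8 of the 10 genes, 10 windows in all, and 8 of these held more CpG than the median of 7 over 32851 windows. The window of Cd34 and that of the second Tcf7l2 start held 7 each. TGGAAA (the NFAT core GGAAA with a T before it) and CTTTGA (a TCF/LEF core) were searched on both strands. They were in 0 of the 10 windows, while 21.4% and 16% of all windows hold them. The 10 windows had a median of 30.5 CpG, and these shares were not matched for CpG content. This says only that the letters searched are not in these windows. GGAAA without the T was not counted, and the Gas1 stretch above holds it.

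Cd34 encodes a surface sialomucin used to sort mouse bulge cells. Its values were 0.01, -0.01 and -0.05 in vector control replicates and -0.05, 0.05 and 0.34 in caNFATc1 replicates. The controls lay within 0.06 of each other, caNFATc1 replicate 3 was the highest array, and the groups overlapped. The pair differences were -0.06, 0.06 and 0.39, with a mean of 0.13 and a 95% interval from -0.12 to 0.38 with the block (adjusted p = 0.557). Endothelial and blood cells also express Cd34. Of 12 endothelial markers, 1 rose with the block, Esam by 0.43 (adjusted p = 0.0318, and 0.315 without), 11 were not called and the median was -0.03. Of 12 leukocyte markers 0 were called and the median was -0.03. Pecam1 and Ptprc, defining markers of these cells, differed by -0.04 and -0.06. The part of such cells in the Cd34 values was not tested.

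Lrig1 encodes a membrane protein that restrains ERBB receptors and marks stem cells of the upper follicle. Its values were -1.06, 0.00 and 0.06 in vector control replicates 1, 2 and 3 and -0.86, 0.00 and 0.27 in caNFATc1 replicates. Replicate 1 was the lowest array of each group, with a value minus the mean of the others of -1.09 in controls and -0.99 in caNFATc1 cells. The pair differences of 0.20, 0.00 and 0.21 were small beside that, and their mean of 0.14 had a 95% interval from -0.05 to 0.32 with the block (adjusted p = 0.367, and 0.939 without). Among 17 measured ERBB, MET and LRIG genes, 1 rose, 0 fell and 16 were not called with the block, with a median of 0.07. The gene that rose was Epgn, which encodes the EGF receptor ligand epigen, by 1.43 ± 0.14 (SE with the block, adjusted p = 0.00983, against 0.0548 without it). Egfr differed by 0.33 and the related genes Lrig2 and Lrig3 by 0.30 and 0.10, and none passed (adjusted p with the block, 0.0980, 0.185 and 0.590).

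**Figure D3:**
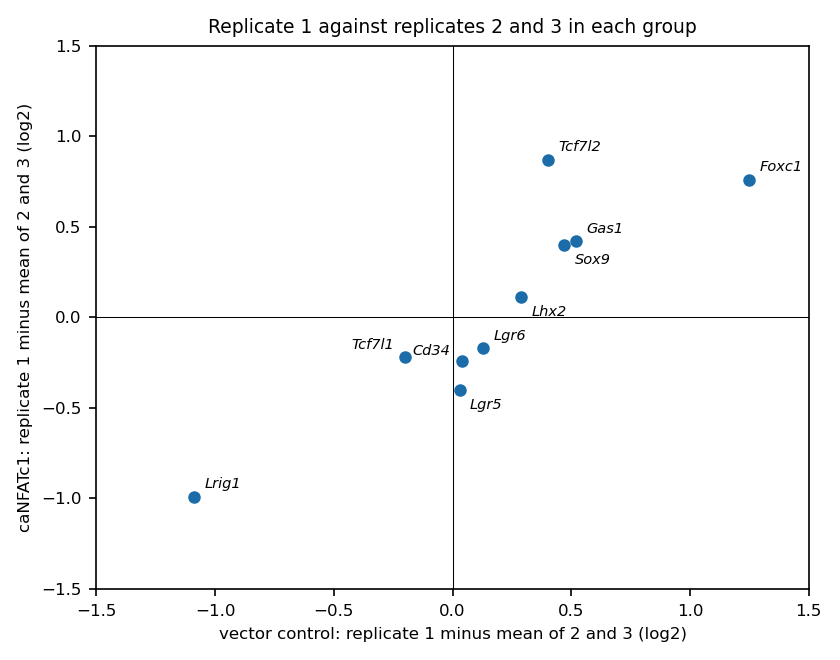
For each of the 10 genes, the value of replicate 1 minus the mean of replicates 2 and 3, in vector control (x axis) and caNFATc1 cells (y axis), on the log2 scale. Foxc1 (1.25 and 0.76) and Lrig1 (-1.09 and -0.99) lie farthest from 0, on the same side in both groups.

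Over the control arrays Foxc1 and Lrig1 varied more between replicates than between the groups. So did Sox9, Tcf7l1, Lhx2 and Lgr6, with smaller ranges. Over the caNFATc1 arrays the range also exceeded the group difference for Tcf7l2 (1.26 against 1.09), Lgr5 (1.15 against 0.90) and Cd34 (0.39 against 0.13). For Gas1 the range over the caNFATc1 arrays was 0.89, against a difference of 0.93. Replicate 1 minus the mean of replicates 2 and 3 was 1.25 and 0.76 for Foxc1 in control and caNFATc1 cells. Tcf7l2 (0.40 and 0.87), Gas1 (0.52 and 0.42), Sox9 (0.47 and 0.40) and Lhx2 (0.29 and 0.11) were also higher in replicate 1 in both groups, and Tcf7l1 was lower (-0.20 and -0.22). Cd34, Lgr5 and Lgr6 were slightly higher in replicate 1 among controls and lower among caNFATc1 arrays. Xist was lowest and Eif2s3y highest in replicate 1 of both groups, as given above. What sets replicate 1 apart, and its part in these values, was not tested.

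Further stem cell and upper follicle genes, such as the bulge keratin Krt15, were counted as a list of 38 measured genes. With the block 6 rose, 2 fell and 30 were not called, against 3.73% higher and 2.38% lower over all genes. The median difference was 0.02. Postn, the gene of the matrix protein periostin, rose by 4.05 ± 0.21 (SE with the block, adjusted p = 0.00307, and 0.0276 without), the one gene of the list past both fits. The call without the block was lost after quantile normalization and in 6 of the 9 settings that left out arrays. Dkk3, a Wnt inhibitor family member, and Ccn2, a matricellular gene, rose by 1.31 and 1.53 (adjusted p with the block, 0.0105 and 0.0136, and without it 0.0845 and 0.0581). Plet1, a surface marker of the upper follicle, fell by 0.58 ± 0.08 (SE with the block, adjusted p = 0.0185, against 0.688 without it). The other gene that fell was Vdr, the vitamin D receptor gene, by 0.42 (adjusted p = 0.0334 with the block, against 0.721 without it). Krt15 differed by -0.58 ± 0.18 (SE with the block, adjusted p = 0.132), with pair differences of -0.58, -0.09 and -1.08. After quantile normalization with the block it was called at -1.37 (adjusted p = 0.0474), and without pair 2 it was called with the block at -0.83 (0.0378). For the list as a whole, quantile normalization with the block gave 5 higher and 5 lower. Among 13 basal keratinocyte genes 4 rose, 0 fell and 9 were not called with the block: Cd44, the integrin gene Itgb1 (0.65), Cav1 (0.47) and Trp63 (0.42), which encodes the p63 factor of basal cells. Without the block 0 of the 13 passed (adjusted p of these 4 between 0.0617 and 0.322). By limma without the block 4 of the 13 had an unadjusted p under 0.05, against 12.7% of all genes.

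**Figure D4:**
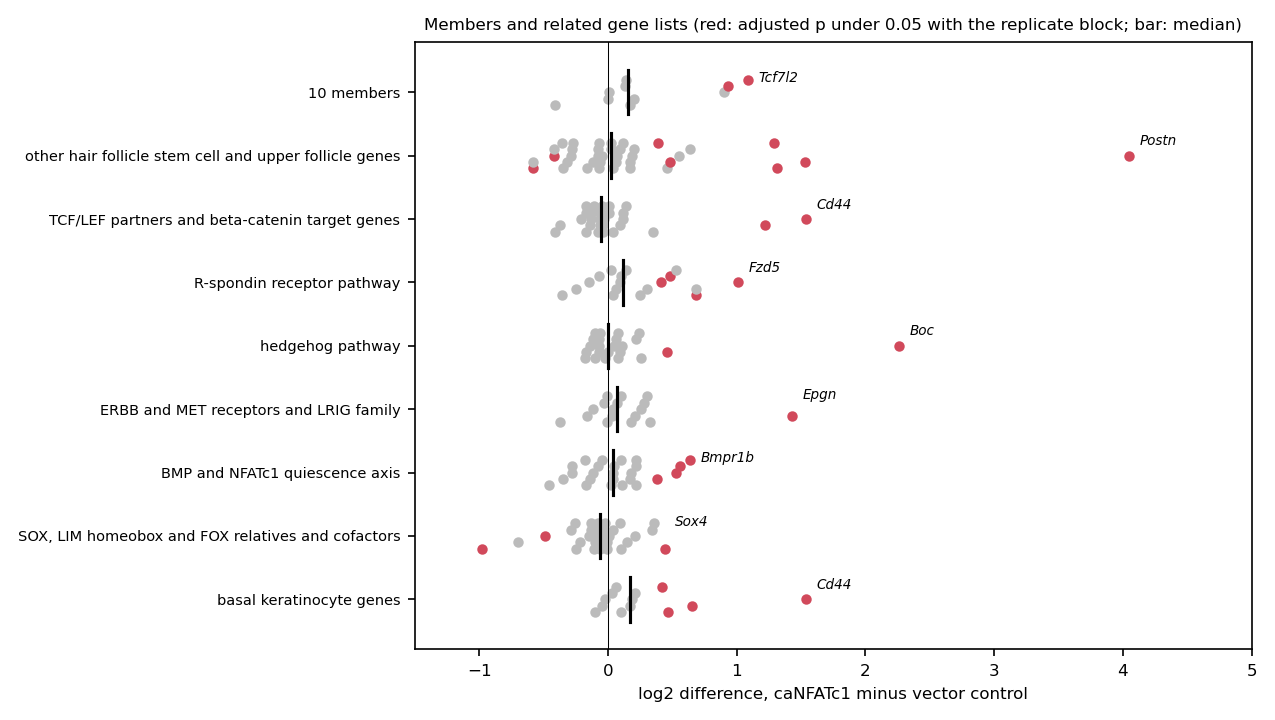
Log2 difference, caNFATc1 minus vector control (x axis), of each measured gene of the 10 members and 8 related lists, in red where the adjusted p with the replicate block is under 0.05, with a black bar at the list's median and the gene with the largest difference named. The medians lie between -0.06 and 0.17, and 2 of the 10 members are red.

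Markers of fibroblasts, cells that express several of the matrix genes above, were on average highest in caNFATc1 replicate 3. Lgr5 was also highest on that array, as were Cd34 (0.34), Lrig1 (0.27), Lgr6 (0.24) and Tcf7l1 (0.18). Sox9 was lowest there (-0.80), and Lhx2 (-0.04) and Foxc1 (-0.03) were not highest there. Gas1 was about equal in caNFATc1 replicates 1 and 3 (0.87 and 0.89), with its largest pair difference in pair 3 (1.39). Tcf7l2 was highest in caNFATc1 replicate 1 (1.33). Of 14 measured fibroblast markers, 9 were positive, 2 rose with the block (against 3.73% of all genes) and 12 were not called. Col3a1 rose by 1.20 and Col6a1 by 0.73 (adjusted p with the block, 0.0296 and 0.0207), and Pdgfra differed by 0.83 (0.0778). Col1a2, Dcn and Lum, further markers of the list, differed by 0.05, 0.08 and -0.01. Of the 14, 5 were negative, and the median difference was 0.14. Without the block 0 of the 14 passed, and 3 had an unadjusted p under 0.05 by limma, against 12.7% of all genes. The mean of the 14 rows was -0.21, -0.08 and -0.07 in vector control replicates 1, 2 and 3 and -0.15, 0.05 and 0.48 in caNFATc1 replicates. Vim, at -2.98 and -2.92 in replicate 1 of the vector control and caNFATc1 groups, is among the 14 and lowers both replicate 1 means. The median of this list was -0.05, 0.06 and 0.40 in pairs 1, 2 and 3. In the same pairs Col3a1 was higher by 1.33, 0.62 and 1.67, and Col6a1 by 0.98, 0.68 and 0.52. The part of these cells in the result was not tested, and row-centred values cannot show whether their markers are near 0. Of 10 melanocyte markers 0 were called with the block. None of the 10 melanocyte or 12 leukocyte markers had an unadjusted p under 0.05 by limma in either fit.

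The genes most like the 2 that rose were taken as those with the smallest root mean square distance over the 6 arrays. For Tcf7l2 they were Bcl11a, a zinc finger transcription factor gene, and Net1, at distances of 0.13 and 0.16 log2 units. Bcl11a had pair differences of 1.30, 0.64 and 1.03, and Net1 of 1.69, 0.78 and 0.92. For Gas1 they were Nudt4 and Septin6, both at 0.14 log2 units. Nudt4 had pair differences of 1.02, 0.34 and 1.40 and Septin6 of 0.51, 0.27 and 1.34. By limma Nudt4 and Septin6 passed neither fit (adjusted p with the block, 0.0532 and 0.111). Bcl11a and Net1 passed with the block (0.0185 and 0.0288) and not without it (0.194 and 0.186).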

How the data were processed

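The authors deposited 1 table of log2 values for the 6 arrays, with 28815 rows. Per the submitters' processing notes RMA was used, with mm8 as the build; for software version and row filters, none is given in the sources used here. Every row median was 0 within 5e-07, so brightness, and with it any filter on dim rows, could not be used, and the number of arrays limits the precision. Base 2 was assumed because RMA gives log2 values. Platform annotation gave 1 symbol for 21780 rows, several for 1605 and none listed for 5430, and rows of a symbol were averaged into 19935 genes.

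Groups were compared with limma 3.58.1 in R 4.3.3, without and with the replicate number of the titles as a block. Both fits used lmFit and eBayes, 2-sided, with Benjamini-Hochberg adjustment over all genes and a threshold of 0.05. They were tested on simulated data that kept the replicate effects of the block fit, which cannot test the pairing itself. After subtracting group means, arrays of equal number correlated across genes at 0.71, 0.61 and 0.57 for replicates 1, 2 and 3 (the 6 other pairings between -0.60 and 0.18), all above the limit of 0.1, so equal numbers were treated as pairs. The labels call the replicates biological but name no shared culture, so p-values reflect the spread between these samples, which may be technical. Alternatives were the block, leaving out arrays or pairs, other scalings, array weights, a robust prior and the median of rows.

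The members and lists were chosen with earlier results of these data known. Named genes were the 10 members, up to 4 genes of each list with the lowest p in the fit with the block, a fixed set of known pathway genes, and the 2 genes closest to each member called with the block. The marker genes Krt5, Krt14, Epcam, Pecam1, Ptprc, Esam, Vim and Dsp, and Vdr, were named after their values were seen. So were the fibroblast markers Col1a2, Col3a1, Col6a1, Dcn, Lum and Pdgfra. Promoter windows come from RefSeq (GRCm38.p6).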

Additional observations from a re-analysis of the deposited data

How the results depend on the processing

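The arrays carry no brightness after row centring, so low signals could not be set apart. Without the block 43 genes were called. The count was 1219 with the replicate block, 169 after quantile normalization, 1030 with quantile normalization and the replicate block, and 264 with array weights. Leaving out single arrays gave between 0 and 83, leaving out a pair without the block between 0 and 31, and leaving out a pair with the replicate block 711, 743 and 1086. At 0 calls, 2113 (without vector control replicate 3) and 1580 (without pair 3) genes had an unadjusted p under 0.05 by limma. Of the 10 members, 0 were called in every setting without the block. With the replicate block 2 were called, with quantile normalization and the replicate block 1 (Tcf7l2), and with a pair left out and the block between 1 and 3. Tcf7l2, Gas1, Lgr5 and Tcf7l1 stayed positive and Sox9 negative in all 19 alternatives.

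Among 59 named genes, 15 changed sign in some setting, and none was called in the setting where its sign changed. One of the 15, Krt15, was called in other settings, at -1.37 with quantile normalization and the replicate block (adjusted p = 0.0474) and at -0.83 without pair 2 with the block (0.0378). Over the settings that left out arrays, the difference ran between -0.11 and 0.09 for Lhx2, -0.11 and 0.11 for Lgr6, 0.00 and 0.22 for Cd34, -0.07 and 0.62 for Foxc1, and -0.22 and 0.47 for Lrig1. It ran between -0.03 and 0.11 for Nfatc1, -1.43 and 0.02 for Krt15, -0.11 and 0.63 for Lgr4, -0.13 and 0.05 for Lef1, and -0.18 and 0.04 for Axin2. For Gli1 it ran between -0.18 and 0.08, for Lrig3 between -0.02 and 0.19, for Foxc2 between -0.57 and 0.09, for Fgf18 between -0.23 and 0.00, and for Gli3 between -0.03 and 0.54. Lhx2 was 0.00 with arrays centred on their median, and 0.03 after quantile normalization, with quantile normalization and the block, and with array weights. With array weights Nfatc1 was 0.00, Lef1 0.02, Axin2 0.01 and Gli1 0.02. Without pair 1 Lhx2 and Foxc2 were at 0.06 in both fits. Lgr6 was at 0.07 without caNFATc1 replicate 1 and -0.08 without caNFATc1 replicate 3, and Foxc2 at -0.52 without vector control replicate 2. The cause of these changes was not tested. Each member had a single row, so the planned comparison of its rows could not be made.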

Other observations

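Among the marker rows, Vim and Dsp varied between replicates far more than between groups. Vim, which encodes the intermediate filament of mesenchymal and cultured cells, was at -2.98 in vector control replicate 1 and -2.92 in caNFATc1 replicate 1, and between -0.03 and 0.79 on the other arrays. Dsp, which encodes the desmosome protein desmoplakin, was at -2.78 and -2.58 in replicate 3 of the vector control and caNFATc1 groups, and between -0.11 and 0.99 on the others. Lrig1 and Foxc1 followed replicate 1 in the same way, with smaller steps.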
